A study of Mus musculus with 27 samples.

Results

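The loss of the histone methyltransferase G9a from D1 neurons was examined on 13 of the 27 arrays of the series. D1 neurons are the striatal projection neurons that express the dopamine receptor Drd1. The 7 mutant arrays came from mice labelled Drd1-TRAP; Drd1-Cre; G9a fl/fl, of which 3 had received saline and 4 cocaine. The 6 control arrays came from mice labelled Drd1-TRAP; G9a fl/fl, of which 2 had received saline and 4 cocaine. All groups therefore carried 2 floxed copies of G9a and the ribosome tag (L10a-GFP), and only mutants carried Cre, so that genotype stands for Cre as well as for the deletion. The mice were males aged 2 to 5 months on a mix of C57BL/6 and 129/Sv with 2 generations of backcrossing to C57BL/6, taken 2 h after the last of 8 injections of saline or of cocaine at 20 mg/kg/day. Cre was expressed under Drd1, in the same cells as the tag, and the labels give no time of deletion. RNA bound to the tagged ribosomes was read (translating ribosome affinity purification, TRAP), which reports the cells that carry the tag plus any RNA that comes along with them. In such bulk samples, fewer cells of a type and less RNA per cell cannot be told apart.

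G9a, encoded by Ehmt2, forms a complex with its relative GLP (Ehmt1) and adds methyl groups to H3K9 in euchromatin, a mark associated with silent genes. In neurons and in other differentiated cells the complex is known for keeping genes of other tissues and of earlier developmental stages off.

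The upstream promoter sequences of 3 genes that rose are shown as examples with few and with many CpG dinucleotides. Afp encodes alpha-fetoprotein, a serum protein of the fetal liver, Afm encodes its neighbour afamin, a vitamin E binding serum protein, and Hacd2 encodes a dehydratase of very long fatty acid elongation. Each sequence is the plus strand of the 250 bases before the annotated start in RefSeq (build GRCm38.p6), with every CG in capitals. The positions are chr5:90490464-90490713 for Afp, chr5:90518699-90518948 for Afm and chr16:35022171-35022420 for Hacd2.
Afp: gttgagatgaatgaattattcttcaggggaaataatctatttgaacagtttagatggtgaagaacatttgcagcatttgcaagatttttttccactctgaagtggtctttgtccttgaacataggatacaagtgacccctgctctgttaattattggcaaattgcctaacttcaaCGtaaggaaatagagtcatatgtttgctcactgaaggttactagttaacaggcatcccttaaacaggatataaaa
Afm: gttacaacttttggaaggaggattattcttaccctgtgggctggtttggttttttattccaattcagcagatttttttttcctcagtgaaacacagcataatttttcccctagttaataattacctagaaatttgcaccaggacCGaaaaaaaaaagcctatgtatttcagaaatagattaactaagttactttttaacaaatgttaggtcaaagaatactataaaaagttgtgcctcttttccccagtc
Hacd2: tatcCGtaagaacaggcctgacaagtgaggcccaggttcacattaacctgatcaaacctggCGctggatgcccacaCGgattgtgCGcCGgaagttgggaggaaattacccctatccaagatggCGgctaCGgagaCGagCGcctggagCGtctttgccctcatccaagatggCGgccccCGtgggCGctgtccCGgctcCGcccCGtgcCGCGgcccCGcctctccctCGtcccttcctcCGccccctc
Afp and Afm had 1 CG each in these 250 bases, and Hacd2 had 21.

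Values are log2 expression after robust multi-array averaging (RMA), and a difference of 1 is a 2-fold change. Changes are mutant minus control with saline and cocaine weighted equally, with the standard error (SE) of the fit, and a gene is said to have risen or fallen when its adjusted p in limma was under 0.05. The D1 arrays were alike in distribution, with medians from 5.73 to 5.82 and correlations of at least 0.987 with every other array of their group. The difference between 3' and 5' control probe sets, a measure of RNA integrity, ran from 1.96 to 2.90 in controls and from 2.16 to 2.68 in mutants. The genotypes overlapped among cocaine arrays (2.17 to 2.90 in controls, 2.16 to 2.34 in mutants). Among saline arrays they did not (1.96 to 2.01 in controls, 2.19 to 2.68 in mutants). Counts with this measure as a covariate are given below. Ttr, a transcript of the choroid plexus, ran from 5.69 to 12.36, and D1 control cocaine replicate 3 (9.67) and D1 mutant saline replicate 3 (12.36) were the only D1 arrays above 9.5. Of the D2 arrays, which share the fit, only D2 control cocaine replicate 3 (11.40) was above 9.5. Counts without all of these D1 and D2 arrays are given beside the totals.

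Ehmt2 was checked first in every array. It measured 10.74 and 10.67 in saline controls and 9.95, 10.58, 10.34 and 10.23 in cocaine controls. In mutants it measured 8.03, 8.76 and 8.47 after saline and 8.62, 9.37, 9.23 and 8.72 after cocaine. Every mutant array lay below every control array, and the fall was 1.79 on the log2 scale (SE 0.13, limma adjusted p = 4.5e-10), or 3.45-fold. The labels name no floxed exon, so whether this probe set lies in the deleted part is not known. The other Ehmt2 probe set measured 5.59 to 5.97 in controls and 5.38 to 5.82 in mutants, at or under the floor of 6 used for detection. Of 4 tested genes close to Ehmt2 on chromosome 17, C2 (-0.04, adjusted p = 0.923), Neu1 (-0.03, adjusted p = 0.935) and Hspa1b (-0.37, adjusted p = 0.26) did not pass. The fourth, Hspa1a, which like Hspa1b encodes an inducible HSP70 chaperone, fell (-0.35, SE 0.10, adjusted p = 0.037), a call lost when any 1 of 7 arrays was left out. The partner gene Ehmt1 is among the 18 of 20 tested H3K9 methylation writers and readers that did not pass.

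In all, 507 of 12017 tested genes passed (4.22%), of which 373 rose (3.1%) and 134 fell (1.12%). The rises were larger: 75 genes rose by more than 1 on the log2 scale and 5 by more than 3, against 7 that fell by more than 1. The median change was 0.55 among risen genes, -0.41 among fallen genes and 0.01 among all tested genes. In 196 of the risen and 59 of the fallen genes no mutant array overlapped a control array, where 1.8% of all tested genes were without overlap upward and 0.641% downward. Without the arrays with high Ttr, 559 genes passed, and with the RNA integrity measure as a covariate 568 passed. With 1 saline control (replicate 1) left out 319 passed, 253 risen and 66 fallen, and arrays weighted by quality gave 969 (692 and 277).

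**Figure D1:**
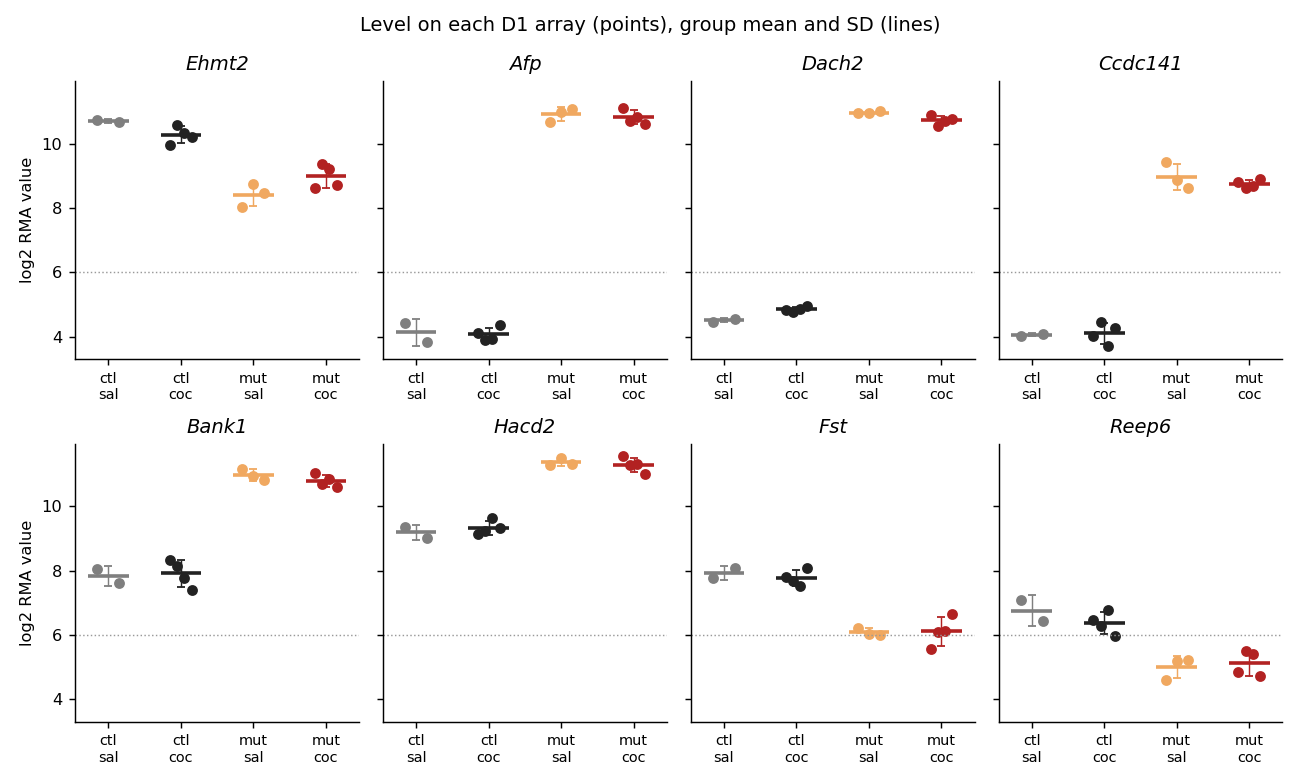
Log2 RMA value of 8 genes on each D1 array (points), by genotype (ctl, control; mut, mutant) and drug (sal, saline; coc, cocaine), with the group mean (long line) and SD (error bar); the dotted line marks the detection floor of 6. Afp, Dach2 and Ccdc141 lay under the floor in the 6 controls and above it in the 7 mutants, Bank1 and Hacd2 rose from a detected level, and Ehmt2, Fst and Reep6 were lower in every mutant array than in every control array.

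The largest rises were of genes under the detection floor of 6 in nearly all control arrays. Afp rose furthest, from 4.44 and 3.85 in saline controls and 4.11, 3.91, 3.92 and 4.36 in cocaine controls to 10.67, 10.99 and 11.08 in saline mutants and 11.12, 10.71, 10.84 and 10.61 in cocaine mutants. No control array came near a mutant array. Of 4 other probe sets of Afp, 3 were higher in mutants too, by 5.09, 3.66 and 0.42, and the last was at 4.97 in controls and 4.94 in mutants. Dach2, a transcription factor of eye, limb and muscle development, measured from 4.47 to 4.97 in controls and from 10.56 to 11.01 in mutants (6.17, SE 0.10, adjusted p = 4.4e-24). Its other probe set was 4.27 higher in mutants. Ccdc141, a centrosomal protein expressed in heart, measured from 3.70 to 4.46 in controls and from 8.63 to 9.43 in mutants (4.78, SE 0.12, adjusted p = 4.8e-20). Corin, the cardiac protease that activates natriuretic peptide, had controls of 5.90, 5.21, 5.19, 5.63, 6.02 and 5.40 and mutants between 8.92 and 9.28 (3.58, SE 0.15, adjusted p = 3.1e-15).

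In 19 genes all 6 controls lay under 6 and all 7 mutants above it. Besides Afp, Dach2 and Ccdc141 these included Tmprss11a, a transmembrane serine protease (at most 5.56 in controls, at least 6.89 in mutants), and Gtf2a1l, a TFIIA-like factor of male germ cells (5.44 and 6.67). They also included Slc5a4b, a sugar transporter family member (5.04 and 6.31), Pkib, an inhibitor of protein kinase A (5.90 and 6.25), and Ctsll3, a cathepsin L-like gene (4.92 and 6.04). The reverse pattern, all controls above 6 and all mutants below it, was found in 2 genes: Marveld3, a tight junction protein, fell (at least 6.10 in controls, at most 5.57 in mutants, a change of -0.85), and F12 did not pass (-0.21, adjusted p = 0.26). A gene silent in controls enters the test only if it is above 6 in 3 arrays of some kind, so the share of risen genes among those below 6 in controls (76 of 637, 11.9%) is set partly by that filter. Below 6 the signal is also close to background, which limits the folds of these genes.

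Genes in use in control neurons moved as well. Bank1, a B cell scaffold protein, measured from 7.41 to 8.35 in controls and from 10.61 to 11.18 in mutants (3.01, SE 0.14, adjusted p = 2e-14, 8.07-fold). Zranb3, a DNA translocase of replication fork repair, measured 7.06, 6.90, 7.21, 7.10, 6.69 and 7.05 in controls and from 9.36 to 10.06 in mutants (2.72, SE 0.12). Hacd2 went from 9.03 to 9.65 in controls to 11.02 to 11.56 in mutants (2.07, SE 0.12, adjusted p = 2.3e-12), and its other probe set was 2.37 higher in mutants. Plce1, a phospholipase C that couples Ras to calcium signalling, was at 7.99 to 8.51 in controls and at 9.93 to 10.24 in mutants (1.78, SE 0.09). In all of these the lowest mutant lay well above the highest control. Among genes with a mean control level between 6 and 7, 4.53% rose and 1.13% fell, and above 10, 1.07% rose and 0.588% fell.

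**Figure D2:**
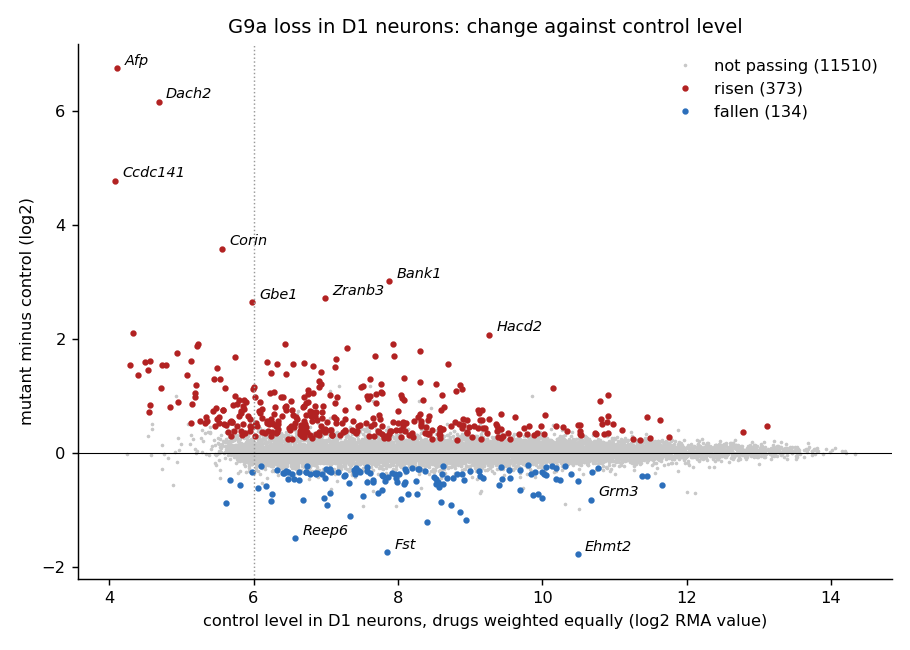
Change in mutants (mutant minus control, log2, vertical axis) against the control level in D1 neurons (log2 RMA value, horizontal axis) for the 12017 tested genes; red points rose (373), blue points fell (134) and grey points did not pass (11510), and the dotted line marks the floor of 6. The largest rises, such as Afp (6.76) and Dach2 (6.17), stand at the left edge, while falls reach no further than -1.79 (Ehmt2).

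The next rises in size held genes of many tissues. Abcc12, an ABC transporter (1.85, SE 0.09), Apod, the lipid carrier apolipoprotein D (1.71, SE 0.14), and Cyp2c23, a cytochrome P450 of arachidonic acid metabolism (1.65, SE 0.10), rose without overlap of the groups. Tnnt2, cardiac troponin T, rose by 1.70 (SE 0.13), and Dct, a melanin synthesis enzyme, by 1.69 (SE 0.11). Phex, an endopeptidase of bone phosphate balance, rose by 1.58, and Kl, the anti-ageing co-receptor klotho, by 1.55, from at most 5.07 in controls to at least 5.97 in mutants. Aga, a lysosomal aspartylglucosaminidase, rose by 1.57, Pdlim3, a Z-disc protein of muscle, by 1.60, and Lamb3, a laminin chain of skin, by 1.52. Spaca1, a sperm acrosome protein, rose by 1.55, with mutants from 5.44 to 6.07, so that it stayed near the floor. Sec14l3, a lipid transfer protein, rose by 1.57 (8.46 to 8.96 in controls, 9.96 to 10.62 in mutants). Ermn, a cytoskeletal protein of myelin, rose by 1.57, while 9 other tested oligodendrocyte markers did not pass.

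The falls were led, after Ehmt2, by Fst, follistatin, the secreted antagonist of activin. It measured 7.78 and 8.09 in saline controls and 7.80, 7.68, 7.51 and 8.09 in cocaine controls, against 6.23, 6.04 and 6.00 in saline mutants and 5.57, 6.10, 6.14 and 6.66 in cocaine mutants (-1.75, SE 0.14, adjusted p = 2e-09). The mutant values sat around the floor, and its second probe set measured 6.94 to 7.23 in controls and 5.98 to 6.35 in mutants. Reep6, an endoplasmic reticulum shaping protein, fell 2.84-fold (SE 0.16 on the log2 scale), with all mutants under 5.52 and all controls at 5.99 or above. Grm3, the metabotropic glutamate receptor mGluR3, fell from between 10.50 and 10.88 in controls to between 9.40 and 10.23 in mutants (-0.82, SE 0.11, adjusted p = 6.3e-06). Rgs10, a brake on G protein signalling, fell from at least 9.83 in controls to at most 9.48 in mutants (-0.73, SE 0.10). The groups of both genes did not overlap.

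Other falls of named function included secreted signals. Bmp2, a bone morphogenetic protein, fell by 0.75 (SE 0.13), Nrtn, the neurotrophic factor neurturin, by 0.72 (SE 0.11), and Fgf11, an intracellular fibroblast growth factor homologue, by 0.73 (SE 0.10), each without overlap of the groups. Asl, the urea cycle enzyme argininosuccinate lyase, fell by 0.79 (SE 0.10). S100a16, a calcium-binding protein, fell by 0.80 (SE 0.16), with 1 saline control (9.59) just under the highest mutant array (9.60). Wnt8b, a developmental signal, fell by 0.72 (adjusted p = 0.034), a call lost when any 1 of 6 D1 arrays was left out (control saline 1 or 2, control cocaine 1 or 3, mutant saline 1 or mutant cocaine 4), with changes of -0.38 to -0.82 over the alternatives run. Marcksl1, an actin-binding MARCKS relative, fell by 1.04 (adjusted p = 0.0016), and without D1 control saline replicate 2 the change was -0.75 (adjusted p = 0.061).

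Gene lists were read against the share of all tested genes that rose (3.1%) or fell (1.12%) and the overall median of 0.01. They are given in the order identity, chromatin, genes of other tissues, signalling, and upkeep of the cell, and each count is of members that passed the filter. The lists were compiled with earlier results of these data known.

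Of the identity markers of the D1 neuron, 8 of 9 did not pass. Drd1 itself ranged from 12.12 to 12.69 in controls and from 12.23 to 12.85 in mutants (0.06, SE 0.12, adjusted p = 0.91). Tac1, the substance P precursor, differed by 0.03 (SE 0.09), Isl1, a LIM homeobox factor of these neurons, by -0.01 (SE 0.13), and Eya1 by 0.07 (SE 0.18). Pdyn, the dynorphin precursor, was at 9.20 to 9.54 in controls and 9.27 to 10.12 in mutants (0.40, SE 0.16, adjusted p = 0.21), and it passed without D1 mutant saline replicate 3 (0.53, adjusted p = 0.042), with the replicate block (0.53, adjusted p = 0.023) and with array weights (0.46, adjusted p = 0.048). Ebf1 differed by 0.42 (SE 0.18, adjusted p = 0.28). Of 9 tested D1 markers 8 lay above 0, with a median of 0.15, and 1 passed, Zfp521 (0.25, adjusted p = 0.016), and its call was lost when either saline control was left out (0.26 with adjusted p = 0.068 without replicate 1, 0.24 with adjusted p = 0.087 without replicate 2). None of 8 tested markers of D2 neurons passed (median -0.01), and Drd2 differed by 0.10 (SE 0.12), Penk, the enkephalin precursor, by -0.23 (SE 0.10) and Gpr6 by 0.08 (SE 0.08). None of the 19 markers shared by both striatal projection neuron types passed (median -0.02), with Ppp1r1b, the phosphoprotein DARPP-32, at -0.02 (SE 0.08), Bcl11b at -0.05 and Gad1 at 0.03. None of 37 genes of cAMP and DARPP-32 signalling passed (median 0.01).

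Few markers of other cells passed. None of 7 astrocyte, 4 oligodendrocyte precursor, 3 microglia, 4 endothelial and mural, 3 cholinergic interneuron and 4 cortical excitatory markers passed. The summed astrocyte level ran from 10.79 to 11.68 in controls and from 10.87 to 11.43 in mutants. That of oligodendrocyte markers ran from 11.63 to 12.05 and from 11.61 to 12.23, and that of GABAergic interneuron markers from 10.14 to 10.35 and from 10.18 to 10.64. The ependyma and choroid plexus sum ran from 9.66 to 10.79 in controls and from 9.99 to 12.63 in mutants, where 1 of 4 tested members, Kl, rose. Th, tyrosine hydroxylase, rose by 0.99 (SE 0.19) among 8 GABAergic interneuron markers, from at most 7.08 to at least 7.12.

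Of 20 H3K9 methylation writers and readers, Ehmt2 fell and Atf7ip, a cofactor of the methyltransferase SETDB1, rose (0.44, adjusted p = 0.037, lost without any 1 of 8 arrays). Of 10 H3K9 demethylases none passed. Of 31 Polycomb genes, Epop, a regulator of Polycomb complex 2 activity, fell (-0.89, SE 0.18), from between 5.21 and 5.78 to between 4.48 and 5.01, all under the floor. Of 12 DNA methylation enzymes and readers none passed. Of 17 histone deacetylases, Hdac1 fell (-0.52, SE 0.09, adjusted p = 0.00074), from between 7.45 and 7.67 to between 6.86 and 7.30. Among 276 Zfp zinc finger genes, a family that holds many silencing factors, 14 rose and none fell (5.07% risen, median 0.05), and 8 of the 14 kept the call without any 1 array. The largest were Zfp941 (1.16, SE 0.16), Zfp105 (1.05, SE 0.11) and Zfp518a (0.89, SE 0.10).

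Genes of other tissues rose in part. Of 29 serum and liver genes 7 were tested and 2 rose, Afp and Afm (0.90, SE 0.14), and the other 5 did not pass. Alb, albumin, the next gene on that side of chromosome 5, stayed under the floor in both genotypes (5.64 to 5.94 in controls, 5.52 to 5.97 in mutants). Of 36 muscle genes 21 were tested and 5 rose: Ccdc141, Corin, Tnnt2, Casq2, the calcium store protein of the heart (0.87, SE 0.12), and Myh7, a slow myosin (0.50, SE 0.10). The median of the 21 was -0.03. Ccdc141 (3.70 to 4.46) and Corin (5.19 to 6.02) were low in controls, so the share of risen muscle genes is set partly by the filter. Of 15 tested immune cell genes 3 rose, Bank1, Cd55, which restrains complement (1.14, SE 0.16), and Cd2, an adhesion molecule of T cells (0.84, SE 0.14), and 2 fell, Il17rc (-0.92) and Stat6 (-0.70). Cd2 stayed under the floor on every D1 array (4.27 to 4.83 in controls, 5.00 to 5.92 in mutants). Cd55 lay under it in controls (4.20 to 4.89) and at 5.10 to 6.23 in mutants. Such genes enter the test only through arrays in which they are above 6, so this count is set partly by the filter. Of 31 germline genes 3 were tested, of which 2 fell, Rps4l (-1.22) and Dazl (-0.52, SE 0.11), while Gtf2a1l and Spaca1, which also belong to the male germ line, rose. Of 124 homeobox, Pax, Tbx, Gata and related factors 33 were tested, Dach2 rose and 32 did not pass (median -0.06). Of 31 imprinted genes 3 rose: Th, Ndn, necdin (0.47, SE 0.08), and Plagl1, a zinc finger growth regulator (0.71, SE 0.07), whose rise was 0.22 (adjusted p = 0.014) over the mean of all its probe sets.

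Clustered protocadherins are cell surface proteins that give neurons individual identities. Of 23 genes 12 passed the filter, all 12 were above 0 with a median of 0.53, and 8 rose (66.7%). All 12 belong to the beta cluster, so the alpha and gamma clusters were not assessed. Of the risen genes, Pcdhb22 lay under the floor in every control (at most 5.79, at least 6.05 in mutants). Pcdhb21 rose by 0.83 (SE 0.10), from between 6.24 and 6.73 in controls to as much as 7.48 in mutants. Pcdhb15 rose by 0.81 (SE 0.12), Pcdhb16 by 0.80 (SE 0.14) and Pcdhb9 by 0.64 (SE 0.12), each without overlap of the groups. Pcdhb19 passed narrowly (0.35, adjusted p = 0.048), and its call was lost without any 1 of 17 of the 27 arrays, with changes of 0.31 to 0.42 over the alternatives. Cluster members under the floor in both genotypes were left out of the test, for instance Pcdhb1 (4.06 and 4.06 on average) and Pcdhb13 (4.15 and 4.20). Sequences of this family are alike, so probe sets of neighbouring members may share signal, which was not tested.

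**Figure D3:**
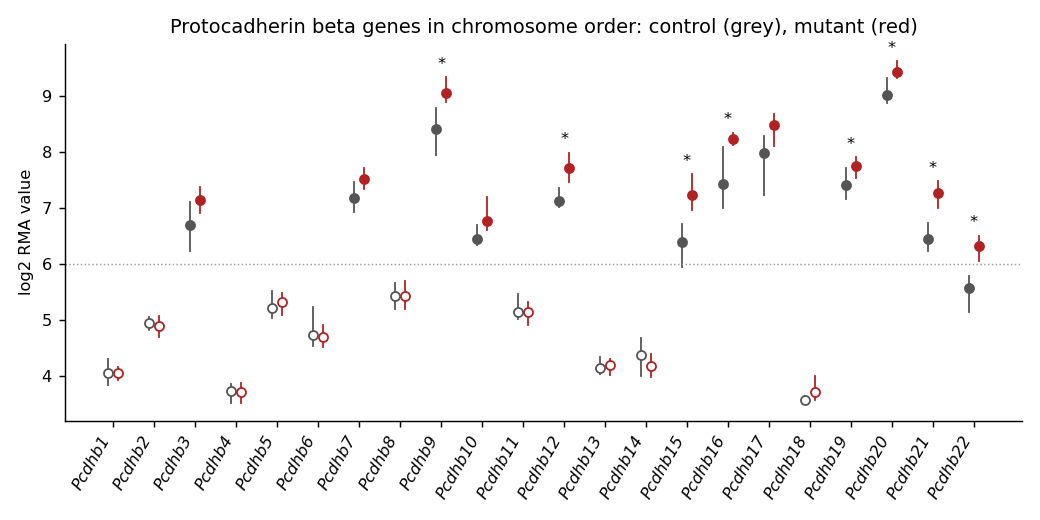
Mean (point) and range (line) of the log2 RMA value of the protocadherin beta genes over 6 control (grey) and 7 mutant (red) D1 arrays, in chromosome order; open points did not reach the test filter, the dotted line is the floor of 6 and stars mark adjusted p under 0.05. Every gene detected above 6 in mutants had a higher mean in mutants than in controls, for example Pcdhb21 (6.45 and 7.28), and the undetected members lay side by side.

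Receptors, ligands and channels showed single changes rather than shifts of a list. Of 33 genes of activin and BMP signalling, Fst and Bmp2 fell and Bmper, a BMP-binding regulator, rose (1.91, SE 0.12), from between 7.33 and 8.09 to between 9.41 and 10.21, while 30 did not pass. Of 30 receptors for neuropeptides and monoamines 4 rose and 1 fell, and 2 of the 4 kept the call without any 1 array: Npy2r, a neuropeptide Y receptor (0.85, SE 0.17), and Crhr1, a receptor of corticotropin-releasing hormone (0.40, SE 0.09). Npy1r, another neuropeptide Y receptor, rose (0.71, adjusted p = 0.013), and the call was lost when saline control replicate 1 was left out (0.59, adjusted p = 0.19). The serotonin receptors Htr1d (0.26, adjusted p = 0.042) and Htr2c (-0.37, adjusted p = 0.026) passed narrowly and lost the call without any 1 of 11 and 6 arrays. Of 42 potassium channel genes Kcna6, a Shaker-type channel, rose most (1.25, SE 0.09), from between 8.06 and 8.64 to between 9.03 and 9.73. Another detected probe set of Kcna6 went the other way (6.77 in controls, 6.49 in mutants). Kcng1, a modulatory subunit, rose by 0.54, and the other 40 did not pass. Scn11a, a sodium channel of sensory neurons, rose by 0.93 (SE 0.09) among 28 sodium and calcium channel genes. Gabrb1, a GABA-A receptor subunit, rose by 0.50 (SE 0.07), from between 10.85 and 11.23 to between 11.36 and 11.57, and 8 other subunits did not pass. None of 13 ionotropic glutamate receptor genes passed. Of 56 axon guidance genes 5 rose and 1 fell, and Sema3a (0.48, SE 0.08) and Ntn1 (0.46, SE 0.09) were the 2 whose rise held without any 1 array. The other rises were Robo1 (0.75), Ephb1 (0.34) and Sema4a (0.34), and Epha10 fell (-0.32).

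Of 16 RGS genes 2 fell without dependence on any 1 array, Rgs10 and Rgs14 (-0.37, SE 0.06), and Rgs19 rose (0.27, adjusted p = 0.032, lost without any 1 of 7 arrays). Of 25 neurotrophic factors and receptors only Nrtn passed. Of 18 neuropeptide precursors 2 rose: Scg2, a secretogranin (0.49, SE 0.10), and Chga, chromogranin A (0.34, SE 0.09, adjusted p = 0.037), whose call was lost without any 1 of 9 arrays. None of 28 immediate early genes passed (median -0.10).

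Metabolic lists were mostly level. Of 19 glycogen genes 1 rose, Gbe1, the glycogen branching enzyme, from 6.33, 5.93, 5.86, 5.98, 5.70 and 5.81 in controls to between 8.02 and 9.16 in mutants (2.65, SE 0.16, adjusted p = 8.5e-12). Of 30 glutathione genes 4 rose and 1 fell. The rises were Gstm7 (1.91, SE 0.11) and Gstm6 (0.87, SE 0.12), which are glutathione transferases, and the peroxidases Gpx6 (1.21, SE 0.18) and Gpx3 (0.72, SE 0.12). The other probe set of Gstm7, also detected, was level (6.99 in controls, 6.97 in mutants). The transferase Gsta4 fell (-0.44, SE 0.10, adjusted p = 0.0051), and without D1 control saline replicate 2 it did not pass (-0.35, adjusted p = 0.091). Of 45 cytosolic ribosomal protein genes Rps4l fell and 44 did not pass (median 0.06), and of 88 oxidative phosphorylation genes Uqcc2, an assembly factor of complex III, fell (-0.41, SE 0.07) and 87 did not pass (median 0.02). Of 73 heat shock and unfolded protein genes Dnajb3, a testis-enriched co-chaperone, rose (0.56, SE 0.12) and Hspa1a fell, and the first call was lost without D1 control saline replicate 2 (0.49, adjusted p = 0.051). None of 17 clock genes passed, and of 19 cholesterol synthesis genes Tm7sf2, a sterol reductase, fell (-0.33, SE 0.08), a call lost with saline control replicate 2 left out (-0.27, adjusted p = 0.14).

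The position of called genes was described next. Of the 373 risen genes 17.4% had a risen gene as an immediate neighbour among the tested genes of their chromosome, against 6.07% of all 11956 tested genes. For fallen genes the shares were 4.48% and 2.2%. There were 33 runs of adjacent genes with the same call, 30 of them risen. The longest was Pcdhb19 to Pcdhb22 with 4 genes, and 3 runs had 3 genes, which were Gpc5, Gpc6 and Dct, then Pcdhb12, Pcdhb15 and Pcdhb16, and Ifi27l2a, Ifi27 and Ifi27l2b. Gpc5 (1.00, SE 0.14) and Gpc6 (0.59, SE 0.10) encode glypicans, heparan sulfate carriers of the cell surface. The starts of Gpc5 and Dct lie 2921 kb apart, whereas the annotated Ifi27 lies inside Ifi27l2a. Ifi27 (0.74, SE 0.09) and Ifi27l2a (0.81, SE 0.13) are interferon-inducible, and Ifi27l2b (0.29) lost its call without D1 mutant saline replicate 1 (0.28, adjusted p = 0.052) or D1 control saline replicate 2 (0.23, adjusted p = 0.2).

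Pairs of different families were also found. Ermn stood beside Cytip, a regulator of integrin adhesion in leukocytes (0.90, SE 0.09), and Patl2 (1.11, SE 0.13) beside B2m, the light chain of MHC class I (1.20, SE 0.18). Crct1, a keratinocyte gene (1.46, SE 0.10), stood beside S100a10, an annexin partner (1.13, SE 0.15). Beside means next among the tested genes: the starts of Crct1 and S100a10 lie 541 kb apart, while the annotated B2m lies inside Patl2. Among the falls Marcksl1 adjoined Hdac1. In the Gstm cluster of chromosome 3, Gstm7 and the adjacent Gstm6 rose, while Gstm5 (0.10, SE 0.09), Gstm3 (0.06), Gstm1 (0.03) and Gstm4 (0.16) did not pass. Members of 1 family can share probe signal, so such pairs are not separate measurements, and neighbours were assigned from RefSeq GRCm38.p6.

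The CpG content of promoters was compared as a description, over windows from 250 bases before to 50 after the start, with several starts for some genes. Windows were found for 288 risen genes (376 windows), 101 fallen genes (127 windows) and 9681 tested genes (12478 windows). The median number of CG per window was 11 for risen genes, 7 for the 66 matched genes that rose by more than 1, 16 for fallen genes and 20 for all tested genes. Windows with 5 or fewer made up 31.1% for risen genes, 46.2% for those that rose by more than 1, 19 of 127 for fallen genes and 13.5% for all. Counted over its whole window Afp has 3, Afm 1 and Hacd2 26. The median was also 11 for all tested genes below 6 in controls, so the windows were also grouped by control level. Between 6 and 7 the median was 8 for risen and 15 for uncalled genes, between 7 and 8 it was 12 and 19, between 8 and 9 it was 14 and 21, between 9 and 10 it was 24 and 23, and above 10 it was 14 and 22. The risen genes had the lower median at 4 of these 5 levels, and not between 9 and 10, where 23 risen genes were matched. TATAAA, searched on both strands, was present in 11.7% of the windows of risen genes and 7.36% of all. For all tested genes below 6 in controls its share was 10.7%, so part of this difference goes with low control level. The E-box CACGTG was present in 8.78% of the windows of risen genes and 9.91% of all.

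The effect under each drug was compared next. After saline 241 genes passed (2.01%), of which 187 rose (1.56%) and 54 fell (0.449%), and after cocaine 396 passed (3.3%), of which 282 rose (2.35%) and 114 fell (0.949%). The saline comparison rests on 2 controls, and its count was 103 (93 risen and 10 fallen) without replicate 1 of them and 133 without replicate 2. Without the arrays with high Ttr 252 genes passed after saline and 459 after cocaine, and with array weights 615 and 826. With the RNA integrity measure as a covariate the counts were 193 and 359. Of the genes called after saline 61.0% were called after cocaine, and of those called after cocaine 37.1% after saline, which makes 147 genes, all with the same sign. The arrays compared are separate for each drug, but both tests use the same estimate of spread for each gene, so the calls are not independent. Of the 241 genes called after saline 219 had the same sign after cocaine, against 50.0% of all tested genes. Afp rose by 6.77 after saline and 6.75 after cocaine, Ccdc141 by 4.91 and 4.65, and Fst changed by -1.84 and -1.65. Ehmt2 itself changed by -2.28 after saline and -1.29 after cocaine, and the difference between the drugs did not pass (1.00, SE 0.27, adjusted p = 0.23).

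The test of the difference between the drugs, cocaine effect minus saline effect, found 0 genes with limma at an adjusted p under 0.05, and 1340 at an unadjusted p under 0.05. With the RNA integrity measure as a covariate these counts were 0 and 743. Cyclic loess on the same values gave 4 and array weights gave 54, the count without the arrays with high Ttr was 0, and the counts without each single array ran from 0 to 7. Inpp4a, a phosphoinositide phosphatase, had the smallest p, with -0.51 after saline and 0.51 after cocaine (adjusted p = 0.084). Calb2, calretinin, had -0.68 and 0.46, and Trim9, a ubiquitin ligase of axons, had 0.47 and -0.64.

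**Figure D4:**
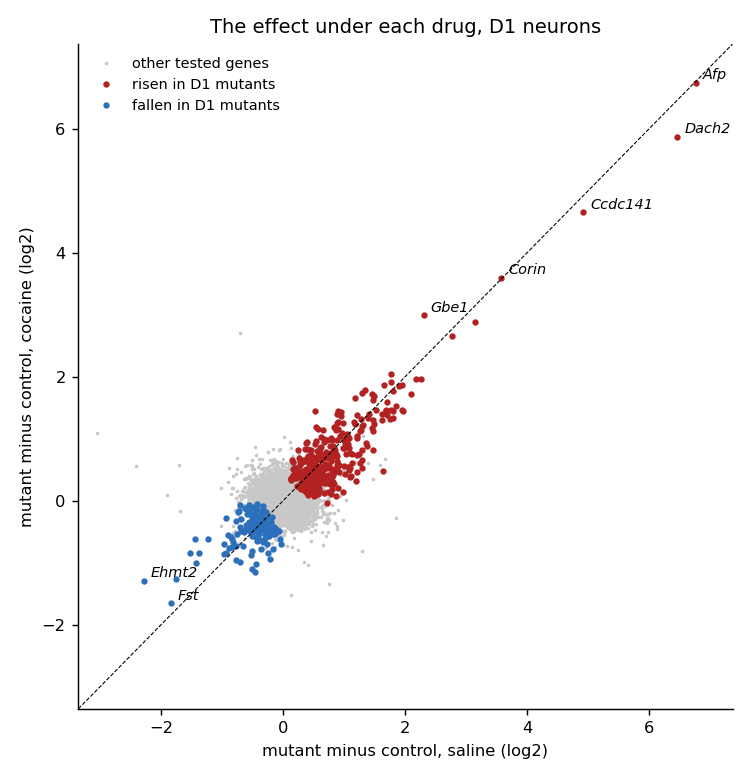
Change in D1 mutants after cocaine (vertical axis, log2) against the change after saline (horizontal axis, log2) for all tested genes, with genes that rose (red) or fell (blue) over both drugs and the line of equal change (dashed). Afp (6.77 and 6.75) and Corin (3.57 and 3.60) lie on the line, and Ehmt2 lies off it (-2.28 and -1.29), a difference between drugs that did not pass (adjusted p = 0.23).

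Whether the effect in D1 neurons differs from that of the same deletion in D2 neurons was tested as the D2 effect minus the D1 effect. The D2 comparison has 7 mutant arrays (3 saline, 4 cocaine) labelled Drd-TRAP; Drd2-Cre; G9a fl/fl, against 7 controls (3 saline, 4 cocaine) labelled Drd2-TRAP; G9a fl/fl. The mutant label leaves the driver of the tag incomplete, while the description of every such array names Drd2 neurons. Drd2 ran from 12.28 to 12.96 in D2 mutants and from 12.94 to 13.60 in D2 controls, against 6.33 to 7.10 on the D1 arrays. Each neuron type had its own Cre line, so Cre line and neuron type cannot be told apart, and 1 of its mutant arrays (cocaine replicate 4) is titled a mutant but described as a control in its source field. In D2 neurons 1470 genes passed (12.2%), of which 1011 rose (8.41%) and 459 fell (3.82%). Of the genes risen in D1 neurons 70.5% also rose in D2 neurons, which is 26.0% of the D2 rises, and of those fallen 66.4% also fell, 19.4% of the D2 falls. The difference passed for 119 genes (0.99%), with a positive sign for 79 (0.657%) and a negative sign for 40 (0.333%). Without the array with the conflicting label it passed for 87. It passed for 157 without the arrays with high Ttr and for 352 with array weights. It passed for 43 of the 373 risen genes (23 with the larger effect in D2 neurons and 20 with the smaller) and for 6 of the 134 fallen genes. Leaving out D1 control saline replicate 1 brought the 119 to 50, D1 control saline replicate 2 to 72 and D2 mutant saline replicate 2 to 71.

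Rises larger in D1 neurons came first from Gtf2a1l, which measured 5.09, 5.34, 4.98, 5.24, 5.44 and 5.17 in D1 controls and from 6.67 to 7.33 in D1 mutants. It rose by 1.87 in D1 neurons and differed by -0.14 in D2 neurons (difference -2.01, SE 0.14, adjusted p = 2e-10). Zranb3 rose by 2.72 and 1.39 (difference -1.33, adjusted p = 1.5e-05), and Cst12, a cystatin, by 2.11 in D1 neurons against 0.75 (difference -1.36, adjusted p = 0.0027). Crct1 rose by 1.46 in D1 neurons and differed by 0.23 in D2 neurons (difference -1.23), and its neighbour S100a10 rose by 1.13 and 1.29, a difference that did not pass (adjusted p = 0.85). Ceacam10, a cell adhesion molecule, rose by 1.16 in D1 neurons and differed by 0.17 in D2 neurons (difference -0.99), and Cd52, a surface peptide of lymphocytes, by 0.98 against 0.06 (difference -0.92). Cst12 (4.1 to 4.4), Crct1 (4.3 to 4.8) and Cd52 (4.9 to 5.4) lay under the floor in D1 controls. In D1 mutants they were around it (5.6 to 7.1, 5.6 to 6.3 and 5.5 to 6.7), so their differences are limited by background. Npy1r rose in D1 neurons (0.71) and fell in D2 neurons (-0.51), the 1 gene called in opposite directions, and without D1 control saline replicate 1 the difference was -1.10 (adjusted p = 0.056).

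Rises smaller or undetected in D1 neurons included several with large D2 effects. Ndnf, a secreted neurotrophic protein, was at 4.43 to 5.02 in D1 controls and 4.37 to 4.59 in D1 mutants, while it rose by 5.04 in D2 neurons (difference 5.33, adjusted p = 3.9e-17). Hpgd, the prostaglandin degrading enzyme, differed by 0.29 (adjusted p = 0.32) in D1 and rose by 3.33 in D2 neurons. Serpinb1b, a protease inhibitor, rose by 1.21 and 3.16, Gbe1 by 2.65 and 4.18 (difference 1.54, adjusted p = 0.00021) and Ccdc141 by 4.78 and 6.10 (difference 1.31, adjusted p = 3e-05). Gabrb1 rose by 0.50 and 1.57. Plagl1 rose by 0.71 and 1.51, and over the mean of all its probe sets this difference fell from 0.80 to 0.24 and did not pass (adjusted p = 0.11). Isl1 differed by -0.01 in D1 neurons, where it is normally expressed, and rose by 0.98 in D2 neurons (difference 0.99, adjusted p = 0.0029). It is also among the 3 tested cholinergic interneuron markers, of which 2 rose in D2 neurons, and another of them, Lhx8, had a difference of 1.11. Which cells gave the rise of Isl1 was not tested. For Ehmt2 the effects were -1.79 and -1.82, a difference of -0.04 (adjusted p = 0.97), and for Afp they were 6.76 and 7.45, a difference of 0.69 (adjusted p = 0.13).

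**Figure D5:**
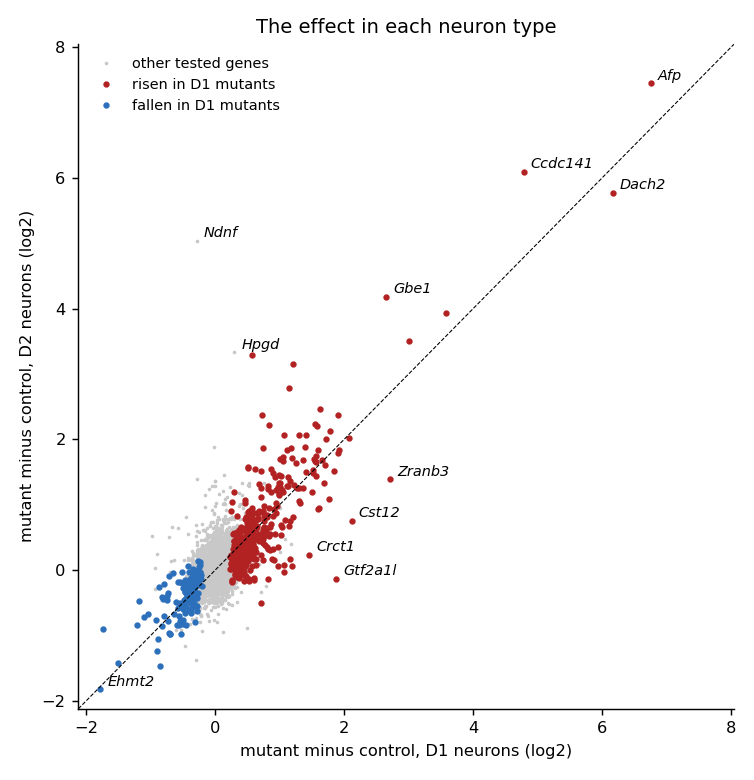
Change in D2 mutants (vertical axis, log2) against the change in D1 mutants (horizontal axis, log2) for all tested genes, with genes that rose (red) or fell (blue) in D1 mutants and the line of equal change (dashed). Gtf2a1l (1.87 in D1, -0.14 in D2) and Zranb3 (2.72 and 1.39) lie below the line, and Ndnf (-0.29 and 5.04), Hpgd (0.29 and 3.33) and Gbe1 (2.65 and 4.18) above it.

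The number of arrays limits the precision, above all the 2 saline controls. Of 128 named genes that passed, 100 kept the call under every alternative tried, and 26 lost it when some single array was left out. The mean of all probe sets of a gene in place of the brightest gave smaller changes for several genes, among them Afp (3.18), Ccdc141 (1.75), Ehmt2 (-1.03), Abcc12 (1.09), Gstm7 (0.94), Phex (0.84) and Kcna6 (0.31), all still past the threshold. Kcng1 (0.21, adjusted p = 0.084) and Zfp521 (0.15, adjusted p = 0.29) lost the call that way. Of the named genes that did not pass, 10 gained a call under some alternative. Besides Pdyn these were Per3 and Ciart of the clock genes, the demethylase Kdm3b, the DNA methyltransferase Dnmt1, the activity-regulated genes Crem, Dusp4 and Nrn1, and the neuron markers Penk and Rasgrp2. For example, Per3 (0.30, adjusted p = 0.084) was at 0.34 (adjusted p = 0.018) without the arrays with high Ttr, and Ciart (-0.40, adjusted p = 0.062) at -0.47 (adjusted p = 0.011) without D1 control cocaine replicate 4.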

How the data were processed

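The log2 values deposited by the authors cover 27 Affymetrix mouse arrays with 45101 probe sets each. Per the submitters' processing notes, RMA in Expression Console 1.1 (Affymetrix) produced them, while the series' design text describes global scaling in other software. The 2016 array annotation named a single gene for 34945 probe sets. For each of 18193 symbols the probe set with the greatest mean was kept, and 12017 were tested because it exceeded 6 in at least 3 arrays. All arrays were fitted in limma 3.58.1 (R 4.3.3) with 1 mean for each of 8 groups of neuron type, genotype and drug. Contrasts were mutant minus control in D1 neurons over both drugs and within each, the cocaine minus saline difference, and the D2 minus D1 difference. Benjamini-Hochberg adjustment was made separately for each contrast. The fit was checked on simulated arrays. RefSeq GRCm38.p6 gave neighbours and promoters. Labels number the replicates and give mice per group, and the p-values rest on the spread between mice.

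Named genes were Ehmt2, the 30 largest rises and 20 largest falls with the same sign under both drugs, and striatal neuron markers. Every list member that passed was named as well, and in lists where none passed those with the smallest p. The largest drug and D2 minus D1 differences and adjacent called genes were added. Genes without a proper name (33 of those called) were counted and not named. F12, Alb, C2, Neu1, Hspa1b, Ehmt1, Ttr, and the uncalled Gstm and Pcdhb genes stand outside this rule and were chosen after their values were seen. The members, lists and rules were chosen with earlier results of these data known. Alternatives were the probe set rule, the filter, cyclic loess, median centring, a trended and robust moderation, array weights, D1 arrays alone, a replicate block, an RNA quality covariate, no arrays with Ttr above 9.5, and leaving out each array.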

Additional observations from a re-analysis of the deposited data

Results flagged for a closer look

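For 33 named genes the effect of the deletion differed between D2 and D1 neurons by the test of the difference itself (D2 minus D1, log2, limma adjusted p under 0.05). Higher and lower refer to the signed change. Among genes that fell in D1 neurons, Fst (higher) therefore fell less in D2 neurons and Marveld3 (lower) fell more. The effect was higher in D2 neurons for Ndnf (5.33), Hpgd (3.04), Acoxl (2.72), Serpinb1b (1.95), Anxa10 (1.90), Btla (1.66), Cd55 (1.64), Gbe1 (1.54), Cd2 (1.38), Ccdc141 (1.31), Lhx8 (1.11), Gabrb1 (1.07), Isl1 (0.99), Fst (0.85), Plagl1 (0.80), Upb1 (0.80), Zfp521 (0.79), Kl (0.68), Casq2 (0.67) and Scn11a (0.50). It was lower in D2 neurons for Gtf2a1l (-2.01), Cst12 (-1.36), Zranb3 (-1.33), Crct1 (-1.23), Npy1r (-1.22), Rassf3 (-1.08), Ceacam10 (-0.99), Cd52 (-0.92), Slc5a4b (-0.67), Pdlim3 (-0.67), Marveld3 (-0.61), Cytip (-0.58) and Htr1d (-0.44). The differences of Casq2, Scn11a, Pdlim3, Htr1d and Fst passed narrowly and were lost when any 1 of 17, 22, 18, 9 and 8 arrays was left out. That of Kl was lost without D1 control saline replicate 2 (0.54, adjusted p = 0.08). Without D1 control saline replicate 1, Lhx8 (1.08, adjusted p = 0.057), Marveld3 (-0.57, adjusted p = 0.066), Cytip (-0.61, adjusted p = 0.053), Slc5a4b (-0.66, adjusted p = 0.076) and Npy1r (-1.10, adjusted p = 0.056) did not pass, and without replicate 2 of that group Cytip (-0.55, adjusted p = 0.078) and Slc5a4b (-0.68, adjusted p = 0.057) did not. Plagl1 did not pass over the mean of all its probe sets (0.24, adjusted p = 0.11).

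On single arrays, a value stood far from the other 3 of its group for 19 of the 392 gene and group pairs looked at (4.85%). Chance alone gives about 1 in 20, so the number is no more than chance gives, and the values are listed as a record only. Among D1 cocaine controls, replicate 3 was low for Bcl11b (12.92, the others 13.41 to 13.45), Isl1 (10.04), Zfp251 (9.03) and Zfp991 (5.99) and high for S100a16 (10.77), and replicate 4 was low for Cd52 (4.90), Ndn (13.08), Pde1b (12.52) and Rxrg (10.10). Among D1 cocaine mutants, replicate 1 was high for Abcc12 (9.43, the others 8.96 to 9.02) and Rgs5 (6.20) and low for Foxp1 (12.28) and Gad1 (12.73). Replicate 4 was high for Gad2 (12.39) and Mbd1 (9.52) and low for Cd55 (5.92) and Rxrg (10.45), replicate 3 was low for Sfxn1 (13.08), and replicate 2 was high for Epha10 (7.34). D1 control cocaine replicate 3 is also the D1 control array with high Ttr (9.67), and its part in these values was not tested.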

How the results depend on the processing

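No named gene that passed changed direction under any alternative run. Weighting arrays by their quality moved every count, to 969 genes over both drugs, 615 after saline, 826 after cocaine, 54 for the drug difference and 352 for the D2 minus D1 difference, and cyclic loess moved the drug difference from 0 to 4; the cause was not tested. All other settings left these counts within 1.5 times. Without single arrays the counts ran from 319 to 549 over both drugs, 103 to 320 after saline, 288 to 435 after cocaine, 0 to 7 for the drug difference and 50 to 139 for the D2 minus D1 difference. Without D1 control saline replicate 1 they were 319, 103 and 50 (both drugs, saline, D2 minus D1), without D1 control saline replicate 2 they were 133 after saline and 72 for the D2 minus D1 difference, and without D2 mutant saline replicate 2 the last was 71. Where an arm was left with 1 array, that array was assumed to vary like the other groups. Median centring moved the share of rises after cocaine from 71.2% to 59.3%. Correlations of same-numbered D1 arrays, after removal of group means, ran from -0.375 to 0.227. They cannot show whether the replicate numbers pair the arrays, because with 2 saline controls the saline values mirror each other. With the replicate block 498, 174, 385, 0 and 93 genes passed. Genes under the floor of 6 are limited by background.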

Other observations

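Several genes that all 6 controls had under 6 and all 7 mutants above it have roles outside the brain. Vcam1, an adhesion molecule of activated endothelium, reached at most 5.60 in controls and at least 6.23 in mutants (1.19). Krt26, a hair follicle keratin, reached 5.89 and 6.57 (1.15), Gkn1, a stomach mucosa protein, 5.88 and 6.23 (0.84), and Serpinb5, the epithelial protease inhibitor maspin, 5.89 and 6.36 (1.30). Glis3, a transcription factor of the pancreas, reached 5.25 and 6.15 (1.36), and Gtsf1, a germ cell factor of transposon silencing, 5.88 and 6.01 (0.63). These were chosen after their values were seen, and like every gene silent in controls they passed the filter through arrays in which they are detected.

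By chromosome, the share of tested genes that rose was highest on chromosome 18 (6.40%), which holds the protocadherin cluster, and, leaving aside chromosome Y with 3 tested genes of which 0 rose, lowest on chromosome 8 (1.85%).

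Other probe sets of named genes that passed were counted where they were above 6 in at least 3 arrays. Of these 54, from 40 genes, 51 differed in the same direction as the one tested. Dimmer probe sets were left out, and they went both ways, for example 0.51 in 1 of Gpc6 and -0.13 in 1 of Ceacam10.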
